A study of Mus musculus with 6 samples.

Results

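The 10 genes described here, Gata1, Gata2, Klf1, Tal1, Lmo2, Zfpm1, Nfe2, Gfi1b, Lyl1 and Runx1, encode transcription regulators of blood stem cells and of the red cell and megakaryocyte lineages. Every probe set whose platform gene symbol is 1 of these was taken, which gave 17 of 45037 probe sets on the array after removal of controls, and all 17 passed the filter on dim probe sets. Signals came from 6 Affymetrix mouse expression arrays, each holding RNA of 1 sample of bone marrow cells depleted of cells with mature lineage markers, 3 from B.D(Chr5) mice and 3 from C57B/L6 mice. All mice were females of 6 to 16 weeks with no treatment named, and the labels give the genetic background of the B.D(Chr5) mice as B.D and that of the others as C57B/L6. Neither the extent of a chromosome 5 segment nor the number of mice behind a replicate is in the labels, and a p-value here reflects only how far these replicates scatter. The members lie on 7 chromosomes and 0 of the 10 lie on chromosome 5.

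GATA2 and GATA1 are zinc finger proteins that bind the same short DNA motif. GATA2 acts in stem cells and early progenitors and is replaced by GATA1 as red cell precursors mature. GATA1 also acts in megakaryocytes, eosinophils and mast cells, and mast cells use GATA2 as well. The helix-loop-helix proteins TAL1 and LYL1 pair with E proteins, and the adaptor LMO2, with LDB1, ties such a pair to a GATA factor in 1 complex, while FOG1, the product of Zfpm1, is a cofactor of GATA1. KLF1 and the p45 subunit of NF-E2 act at globin and other late genes, GFI1B is a repressor that recruits the histone demethylase LSD1, and RUNX1, with its partner CBFB, is needed for the first stem cells of the embryo and for megakaryocytes.

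The start regions of these genes are shown first because GATA factors are known to act on several of them and so that the regions of different genes can be set side by side. Promoters of 300 bases, from 250 before to 50 after a RefSeq start in GRCm38.p6, were at hand for 8 of the 10 genes, as 11 sequences; Lmo2 and Nfe2 had no entry. They were searched on both strands for the GATA motif, which was taken as AGATAA or the variant AGATAG, and equally as TGATAA or the variant TGATAG. The motif was found in 3 of the 11, those of Klf1, Gfi1b and 1 of 2 starts of Tal1, against 29.8% of 32851 promoters of the same length, so its share here was near that of all promoters. Each stands 5′ to 3′ on the strand of its gene, with the motif in capitals.
Klf1, chr8:84901732-84902031, plus strand, motif on the opposite strand from 80 bases before the start: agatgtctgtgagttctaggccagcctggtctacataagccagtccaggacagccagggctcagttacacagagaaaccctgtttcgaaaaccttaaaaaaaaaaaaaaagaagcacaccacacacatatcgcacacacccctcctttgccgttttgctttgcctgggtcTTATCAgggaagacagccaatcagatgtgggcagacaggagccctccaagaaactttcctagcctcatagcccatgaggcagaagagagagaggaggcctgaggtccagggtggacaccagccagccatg
Gfi1b, chr2:28621933-28622232, minus strand, motif on the gene's strand from 120 bases before the start: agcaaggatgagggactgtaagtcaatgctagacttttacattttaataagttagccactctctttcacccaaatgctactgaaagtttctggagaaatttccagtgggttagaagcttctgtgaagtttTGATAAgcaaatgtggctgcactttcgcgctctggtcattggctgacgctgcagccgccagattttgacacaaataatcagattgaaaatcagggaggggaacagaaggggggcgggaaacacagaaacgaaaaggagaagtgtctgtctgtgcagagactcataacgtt
Tal1, chr4:115056176-115056475, plus strand, motif on the opposite strand from 205 bases before the start: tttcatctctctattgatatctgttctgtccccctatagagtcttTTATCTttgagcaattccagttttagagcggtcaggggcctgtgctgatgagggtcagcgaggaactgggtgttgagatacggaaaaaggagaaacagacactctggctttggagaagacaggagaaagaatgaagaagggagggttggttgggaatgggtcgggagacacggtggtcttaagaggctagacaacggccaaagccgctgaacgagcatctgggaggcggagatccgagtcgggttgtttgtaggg
The windows of Gata1, Gata2, Zfpm1, Lyl1 and Runx1 held none of these letters, which says nothing of sites elsewhere.

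Arrays were comparable in brightness, with median signals of 65.1 to 79.5, and background, set on each array at the 95th percentile of its 27 control probe sets for bacterial genes, lay between 21.8 and 38.0. Known markers of stem and multipotent cells that matched a probe set, 7 of 9, were above that level on at least 1 array, Kit among them with a log2 change of -0.12 (limma adjusted p = 1.00). Of these 7, 6 had negative log2 changes and 1 a positive one, with a median of -0.17. The positive one was Slamf1, a surface receptor of stem cells and some progenitors, and the 1 gene of all these lists that passed the test. The brighter of its 2 tested probe sets read 696 ± 128 in B.D(Chr5) and 304 ± 52.8 in C57B/L6 (SD, n = 3 each; log2 change 1.15, limma adjusted p = 0.0361). Markers of mature B and T cells were dim but present, with summed signals of 1077 to 2779 and of 610.5 to 889 in B.D(Chr5) and of 789 to 1163 and of 844 to 1296 in C57B/L6, and Cd4 was at or below background on every array. Markers of maturing neutrophils were the brightest of the mature cell lists, at 51923 to 72164 in B.D(Chr5) and 43066 to 48249 in C57B/L6. All 6 of these had positive log2 changes (median 0.43). In 5 of the 6 the strains did not overlap, against 9.94% of all 10739 tested genes. Of the 6, 0 passed limma, against 0.158% of those genes. Markers of granulocyte-monocyte progenitors summed to 57471 to 81965 in B.D(Chr5) and to 46262 to 54425 in C57B/L6, and those of mast cells, basophils and eosinophils to 6369 to 15050 and to 5835 to 6711. All 5 tested markers of the former and all 7 of the latter had positive log2 changes (medians 0.56 and 0.96). The strains did not overlap in 5 of the 5 and in 1 of the 7, against 9.94% of all tested genes. In both lists 0 passed limma, against 0.158%. Endothelial markers, whose cells also use several of these factors, summed to 2240.2 to 2364 in B.D(Chr5) and to 2148 to 2614 in C57B/L6. Egfl7 and Pecam1 made up most of these sums. Cdh5 and Kdr did not pass the filter, with means of 60.9 and 47.6 in B.D(Chr5) and of 45.4 and 40.6 in C57B/L6. These array values are of whole samples, in which fewer cells of a type and less RNA per cell cannot be told apart.

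All 10 genes gave bright signals in lineage-depleted marrow of both strains, and 0 of them differed between the strains in the test. Every member probe set was above background on all 6 arrays, and the brightest of each gene lay between the 86.6th and the 98.6th percentile of all probe sets by mean signal. The highest percentiles were those of Lmo2 and Klf1 and the lowest those of Runx1 and Gata2. Probe sets differ in how well they bind their transcript, so these percentiles give no order of transcript abundance. Of the 17 probe sets, 0 passed limma at an adjusted p of 0.05 and 0 at an unadjusted p of 0.05, against 0.182% and 4.75% of 22518 tested probe sets. In B.D(Chr5), 0.0977% of those were called higher and 0.0844% lower. For the brightest probe sets, the 95% intervals of the log2 change together ran from -0.44 to 0.43, or from 0.739-fold to 1.34-fold. A p that misses the threshold does not show equal levels, and differences within these bounds remain possible.

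**Figure D1:**
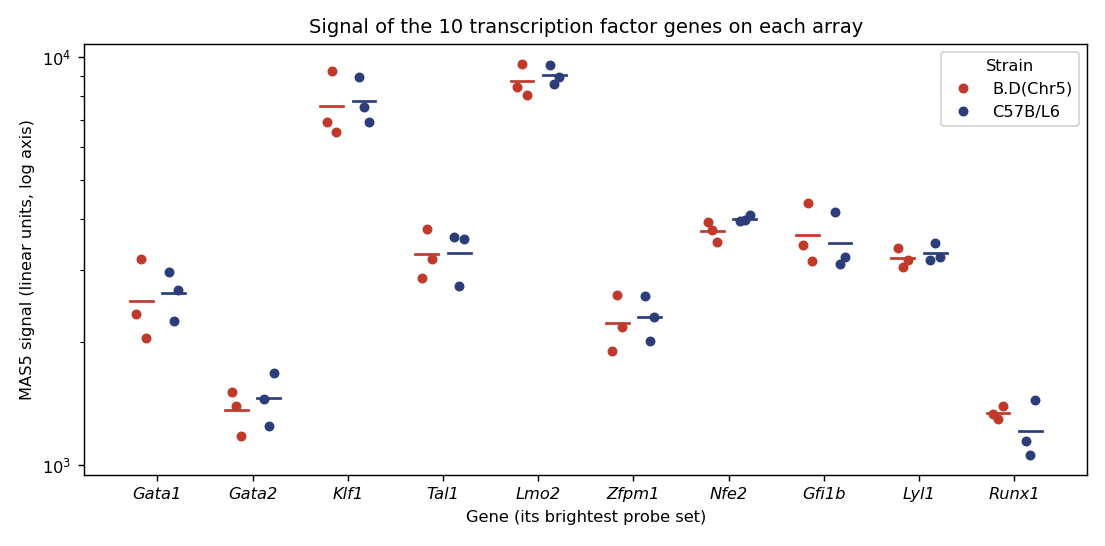
MAS5 signal of the brightest probe set of each gene (log axis), by gene. Each point is 1 array, red for B.D(Chr5) and blue for C57B/L6 (3 arrays each), and the line is the mean; the strains overlap for every gene but Nfe2, where the gap is from 3946 to 3960.3.

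Among the GATA factors and their cofactor, the strains overlapped throughout. Gata1, on chromosome X and the main regulator of red cell and megakaryocyte maturation, had signals of 2345, 3195 and 2043 in B.D(Chr5) and of 2967, 2248 and 2684 in C57B/L6. Its highest and its lowest array were both B.D(Chr5), and the spread within that strain, 2528 ± 597 (SD, n = 3), was wider than the difference to the C57B/L6 mean of 2633 ± 362 (SD, n = 3). This amounted to a log2 change of -0.075 (SE 0.16, limma adjusted p = 1.00). Gata2, on chromosome 6, had signals of 1510.2, 1396 and 1177 in B.D(Chr5) and of 1453, 1245 and 1680.1 in C57B/L6 on its brighter probe set, and a log2 change of -0.096 (SE 0.13). Its other probe set read 1126, 1048 and 949.8 in B.D(Chr5) against 1269, 1046 and 1343 in C57B/L6. There the lowest array was again B.D(Chr5) replicate 3 and the highest C57B/L6 replicate 3, and the log2 change of -0.22 had the smallest p of any member probe set (limma adjusted p = 1.00). Zfpm1, the gene of FOG1 on chromosome 8, had 1905, 2616 and 2176 in B.D(Chr5) and 2592, 2016 and 2311 in C57B/L6. Both its probe sets had small negative log2 changes, of -0.051 and, on the dimmer one, -0.099. The levels of Gata1 and Gata2 were also compared within each array, which cancels the scaling of the array: the log2 difference of Gata1 minus Gata2 was 0.63, 1.19 and 0.79 in B.D(Chr5) and 1.02, 0.84 and 0.67 in C57B/L6. The means of 0.87 ± 0.29 in B.D(Chr5) and 0.85 ± 0.18 in C57B/L6 (SD, n = 3 each) differed by 0.021 (two-sided exact permutation p = 1.00, where 3 arrays against 3 cannot go below 0.1).

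The TAL1 complex genes also overlapped between the strains. Tal1, on chromosome 4, had signals of 2868, 3791 and 3199 in B.D(Chr5) and of 3627, 2744 and 3577 in C57B/L6, and its log2 change of -0.011 was the smallest of the 10. Lmo2, on chromosome 2 and the adaptor of the complex, had 8460.3, 9630.3 and 8072 in B.D(Chr5) and 9533, 8592 and 8934 in C57B/L6. Its highest signal was 1.19 times its lowest, and the log2 change was -0.051 with a 95% interval from -0.24 to 0.13. Lyl1, the relative of Tal1 on chromosome 8, had a highest signal 1.15 times the lowest, the smallest ratio of the 10 genes. It read 3411, 3060.5 and 3186 in B.D(Chr5) and 3176, 3507 and 3243 in C57B/L6, and its log2 change was -0.040 (SE 0.080).

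Of the genes of later erythroid and megakaryocytic regulators, Klf1 and Gfi1b overlapped between the strains and Nfe2 did not. Klf1, on chromosome 8 and required for adult beta globin expression, had 6917, 9239 and 6539 in B.D(Chr5) and 8920, 7532 and 6932 in C57B/L6, and its log2 change was -0.052 (SE 0.14). Gfi1b, on chromosome 2, had 3455, 4395 and 3157 in B.D(Chr5) and 4166, 3107 and 3236 in C57B/L6, and was 1 of the 2 genes with a positive log2 change, of 0.065. In both genes a single array of each strain, B.D(Chr5) replicate 2 and C57B/L6 replicate 1, stood above the others. Nfe2, on chromosome 15, had 3946, 3774 and 3517 in B.D(Chr5) and 3960.3, 3977 and 4095 in C57B/L6. All 3 B.D(Chr5) arrays lay below the C57B/L6 arrays, by a narrow margin, and the log2 change was -0.10 with a 95% interval from -0.27 to 0.067 (limma adjusted p = 1.00). A lack of overlap occurred in 2 of the 17 member probe sets, against 9.40% of all tested probe sets, 4.16% higher and 5.24% lower in B.D(Chr5).

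Runx1, on chromosome 16, was measured by 6 probe sets that differed in brightness and in direction. The brightest had signals of 1334, 1300 and 1399 in B.D(Chr5) and of 1143, 1058 and 1444 in C57B/L6, and its log2 change was 0.16 (SE 0.12, limma adjusted p = 1.00). The other probe set without overlap was also of Runx1 and higher in B.D(Chr5), at 511, 502 and 536 against 411, 424 and 498 in C57B/L6. Its log2 change was 0.21 (limma adjusted p = 1.00). Of the remaining 4, 3 had positive log2 changes of 0.054 to 0.13 and 1 had -0.18. That last probe set read 274, 151 and 322 in B.D(Chr5) and 228, 278 and 316 in C57B/L6, so that its lowest array was B.D(Chr5) replicate 2, and its highest signal was 2.13 times its lowest, the widest ratio among the members. Over all 10 genes, 8 log2 changes were negative and 2 positive, with a median of -0.051. Of all 10739 tested genes, each also by its brightest probe set, 5732 were negative and 5007 positive, with a median of -0.0085. Leaving out 1 array turned the sign for 8 of the 10 genes, all but Nfe2 and Runx1.

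**Figure D2:**
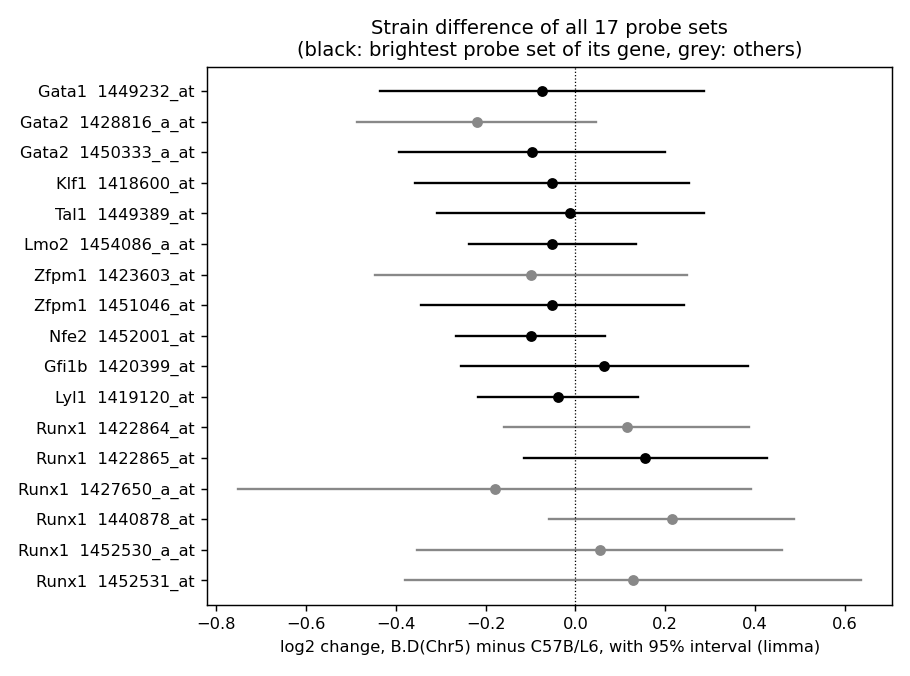
Log2 change, B.D(Chr5) minus C57B/L6, of all 17 probe sets, with 95% intervals from limma; black marks the brightest probe set of each gene and grey the others. Every interval includes 0.

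The second question was how the genes varied between arrays, and here 6 of them followed the same order at the top. Gata1, Klf1, Tal1, Lmo2, Zfpm1 and Gfi1b were each highest on B.D(Chr5) replicate 2 and second highest on C57B/L6 replicate 1. Of all tested genes, each by its brightest probe set, 8.66% had these arrays in that order and 14.9% had them as the highest 2 in either order (7.33% and 12.4% of tested probe sets). This order was singled out after the values were seen, and it takes 1 array from each strain. B.D(Chr5) replicate 3 was the lowest array for 5 of the 10 genes, Gata1, Gata2, Klf1, Lmo2 and Nfe2, by their brightest probe sets. It was lowest for 18.4% of all tested probe sets, a share that was not counted by gene. The same array had the highest median signal, 79.5, and the highest background, 38.0, of the 6 at an equal trimmed mean. What this did to the order was not tested. Gata2 and Runx1 were highest on C57B/L6 replicate 3, as was Nfe2, and Lyl1 on C57B/L6 replicate 2.

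**Figure D3:**
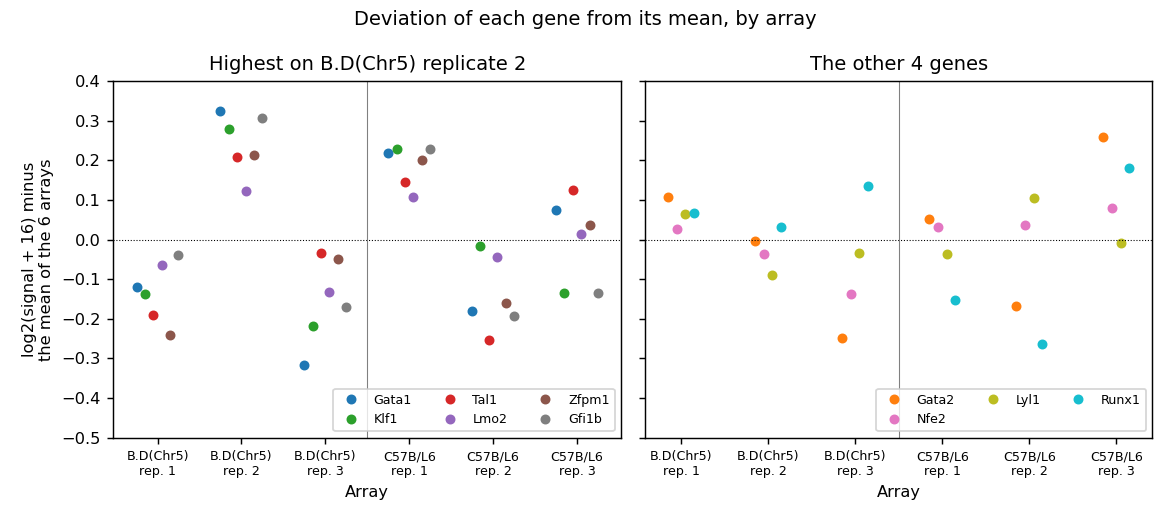
Log2(signal + 16) of each gene's brightest probe set minus its mean over the 6 arrays, by array, with 1 point per gene. The 6 genes on the left lie above 0 on B.D(Chr5) replicate 2 and C57B/L6 replicate 1. They lie below 0 on B.D(Chr5) replicates 1 and 3 and C57B/L6 replicate 2. The 4 on the right have no order common to all, though Gata2, Nfe2 and Runx1 are each highest on C57B/L6 replicate 3.

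Correlations were computed for all 45 pairs of the 10 genes over the 6 arrays, with exact permutation p-values adjusted over the 45 pairs. After adjustment 0 pairs passed 0.05, by Pearson's r or by Spearman's rho, and 10 and 6 pairs had an unadjusted p under 0.05, so the pairs below are given as values. Among the 6 genes picked for their shared highest arrays, r ran from 0.57 to 0.98 in the 15 pairs, a range that this choice largely fixes and that supports nothing. Without the 2 arrays farthest from the median of a pair's first gene, the same 15 values ran from -0.56 to 0.97. With each strain's mean removed they ran from 0.57 to 0.99. The other 30 pairs had r from -0.92 to 0.74. Within 1 strain, 3 arrays are too few for a correlation.

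The highest value was that of Gata1 and Lmo2, whose products meet in the complex with TAL1 (r = 0.98, exact permutation p = 0.00278, adjusted p = 0.125; rho = 0.94, exact permutation p = 0.0167, n = 6). Without the 2 arrays farthest from the Gata1 median it was 0.95. Of all other genes' tested probe sets, 1.76% had r of at least 0.9 with Gata1. Tal1 and Zfpm1 followed (r = 0.94, exact permutation p = 0.0153, adjusted p = 0.172; rho = 0.94, exact permutation p = 0.0167, n = 6), with r = 0.89 after the same step. Klf1 correlated with Lmo2 (r = 0.92, exact permutation p = 0.0125, adjusted p = 0.172; rho = 0.94, exact permutation p = 0.0167, n = 6) and with Gfi1b (r = 0.90, exact permutation p = 0.0375, adjusted p = 0.208; rho = 0.60, exact permutation p = 0.242, n = 6). Both values rest on B.D(Chr5) replicate 2 and C57B/L6 replicate 1: without these arrays r was 0.53 for Klf1 with Lmo2 and -0.25 for Klf1 with Gfi1b. The share of other genes' probe sets with r of at least 0.9 was 3.05% for Klf1, 2.84% for Gfi1b, 2.21% for Lmo2, 1.81% for Tal1 and 1.32% for Zfpm1. It was 1.28% for Lyl1, 0.786% for Runx1, 0.675% for Nfe2 and 0.444% for Gata2.

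The related genes Tal1 and Lyl1 ran opposite ways (r = -0.92, exact permutation p = 0.00972, adjusted p = 0.172; rho = -0.94, exact permutation p = 0.0167, n = 6). Lyl1 was highest on C57B/L6 replicate 2, where Tal1 was lowest, and lowest on B.D(Chr5) replicate 2, where Tal1 was highest. Without the 2 arrays farthest from the Tal1 median, B.D(Chr5) replicate 1 and C57B/L6 replicate 2, r was -0.50. It was -0.19 when each array was centred on its median but -0.92 after quantile normalization. This value therefore depends on which scaling of the arrays is used. Values of -0.9 or below with Tal1 were found for 1.25% of other genes' probe sets. Gata1 and Gata2 had r = 0.55 (exact permutation p = 0.264, adjusted p = 0.545; rho = 0.49, exact permutation p = 0.356, n = 6).

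**Figure D4:**
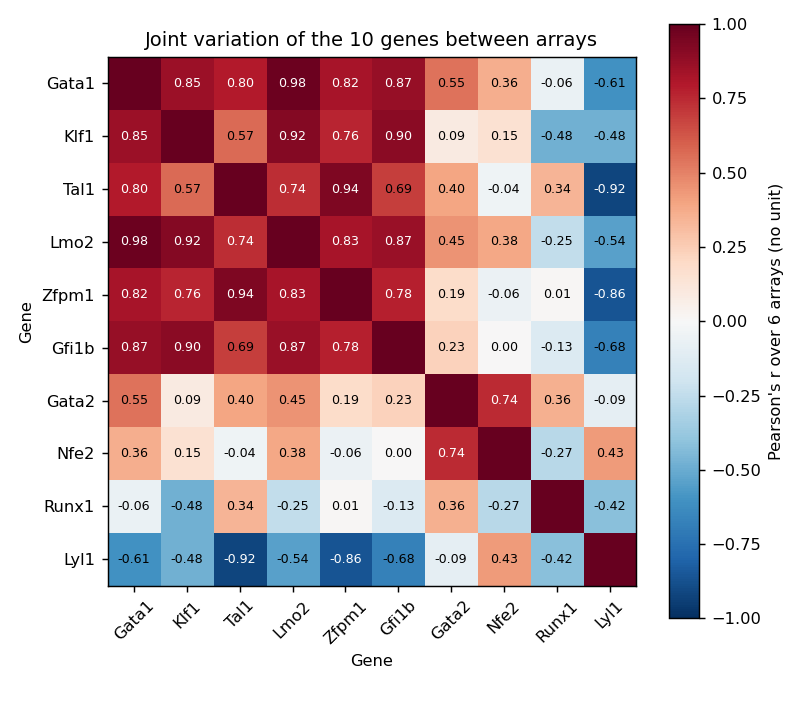
Pearson's r over the 6 arrays for all 45 pairs of the 10 genes, on the brightest probe set of each; red is positive, blue negative, and the numbers are r. The first 6 genes, picked for their shared highest arrays, have values from 0.57 to 0.98 with each other, and Lyl1 has negative values with all 6.

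By the measure of Pearson's r over the 6 arrays, the genes whose signals were most like those of Gata1 were Emc10 (r = 0.998), Rpp14 (r = 0.99) and Mybbp1a (r = 0.99). Emc10 read 2197, 2542 and 2083 in B.D(Chr5) and 2467, 2148 and 2358 in C57B/L6. Those most like Gata2 were Ighmbp2, Ppp3ca and Ankdd1b, each with r = 0.98. They were the highest among tested probe sets with 1 gene symbol, taking 1 probe set per gene, and nothing on function follows from them.

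Known target genes of these factors were next compared across the arrays. Of 16 erythroid target genes, 11 matched a probe set with 1 gene symbol and 10 were tested, of which 0 passed limma (7 negative, 3 positive, median log2 change -0.042), against 0.158% of all 10739 tested genes, whose median was -0.0085. The strains did not overlap in 1 of the 10, Tfrc, against 9.94% of all tested genes. Their summed signal was 59212, 74414 and 59792 in B.D(Chr5) and 71156, 62026 and 58911 in C57B/L6. The highest sums were on B.D(Chr5) replicate 2 and C57B/L6 replicate 1, but the bright genes Car1 and Car2 made up most of each sum. With genes weighted equally, the mean log2 value was 11.04, 11.43 and 11.27 in B.D(Chr5) and 11.44, 11.42 and 11.02 in C57B/L6, so that C57B/L6 replicate 2 was as high as those arrays. Of the 10 tested genes, 6 had these as their highest 2 arrays, against 14.9% of all tested genes. They were Car1 and Car2, which encode carbonic anhydrases, Ermap and Rhd, which encode red cell surface proteins, Fech, the last enzyme of haem synthesis, and the erythropoietin receptor gene Epor; they were named after their values were seen. Car1 read 18505, 22762 and 17383 in B.D(Chr5) and 21848, 18041 and 17993 in C57B/L6. The other 4 did not share the order. Among them Slc4a1, the band 3 anion exchanger of the mature red cell membrane, read 653, 1125 and 1476 in B.D(Chr5) and 1294, 1536 and 819.7 in C57B/L6, highest on C57B/L6 replicate 2. Alas2, the first enzyme of erythroid haem synthesis, and Epb42, a membrane skeleton protein gene, were highest on that array too. The transferrin receptor gene Tfrc and Epor had the smallest p-values of the list, with log2 changes of 0.17 and -0.16 (limma adjusted p = 1.00 for both). The 1 probe set given to Hba-a1 alone read 0.912 to 39.8 and was not tested.

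Of 13 megakaryocyte target genes, 11 matched and 10 were tested. Of the 10, 0 passed limma, against 0.158% of all 10739 tested genes. Log2 changes were negative for 9 and positive for 1 (median -0.13), against 5732 negative and 5007 positive among all tested genes. A lack of overlap between the strains occurred in 0 of the 10, against 9.94% of all tested genes. The summed signal of the list was 6906, 7781 and 5160.3 in B.D(Chr5) and 7560, 7659 and 6267 in C57B/L6, lowest on B.D(Chr5) replicate 3. Of the 10, 2 had B.D(Chr5) replicate 2 and C57B/L6 replicate 1 as their highest 2 arrays, against 14.9% of all tested genes. They were Gp5, a subunit of the platelet receptor for von Willebrand factor, and Vwf itself. Gp9, another subunit of that receptor, had the smallest p, with 211 ± 86.6 in B.D(Chr5) and 270 ± 55.6 in C57B/L6 (SD, n = 3 each) and a log2 change of -0.39 (limma adjusted p = 1.00). Selp, the gene of P-selectin, had -0.14.

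**Figure D5:**
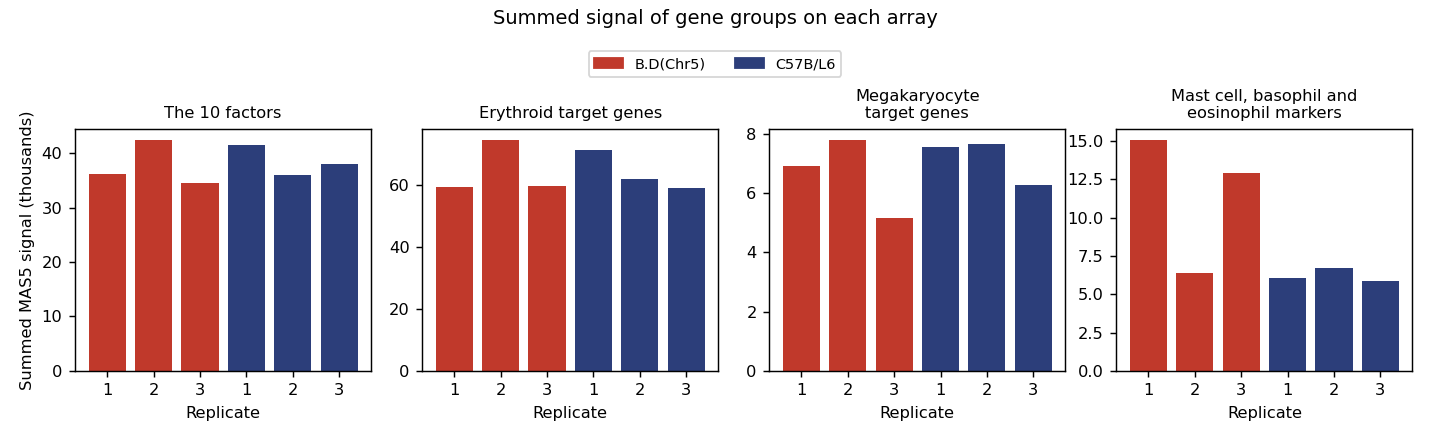
Summed MAS5 signal on each array for the 10 factors, the erythroid target genes, the megakaryocyte target genes, and markers of mast cells, basophils and eosinophils; each bar is 1 array, red for B.D(Chr5) and blue for C57B/L6. The sums of the factors and of the erythroid genes, where Car1 and Car2 make up most of the erythroid sum, are highest on B.D(Chr5) replicate 2 and C57B/L6 replicate 1, and the mast cell, basophil and eosinophil markers on B.D(Chr5) replicates 1 and 3.

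Other measures followed this order on some arrays and not on others. Markers of mast cells, basophils and eosinophils, some of which depend on GATA factors, had summed signals of 15050, 6369 and 12948 in B.D(Chr5) and of 6072, 6711 and 5835 in C57B/L6, and those of granulocyte-monocyte progenitors 81965, 57471 and 78077 in B.D(Chr5) and 54425, 51789 and 46262 in C57B/L6. Both sums were high on B.D(Chr5) replicates 1 and 3, where the 6 factors were below their means. Neither reached such levels on C57B/L6 replicate 2, where the 6 factors were also below their means. Within C57B/L6 the sum of mast cell, basophil and eosinophil markers was highest on replicate 2, at 6711. The progenitor sum was highest there on replicate 1, where the factors were high. The 18S ribosomal RNA signal was 1726, 20010.3 and 12554 in B.D(Chr5) and 13058, 2454 and 6306 in C57B/L6, high on B.D(Chr5) replicate 2 and C57B/L6 replicate 1 and also on B.D(Chr5) replicate 3, where Gata1, Klf1 and Lmo2 were lowest. Summed markers of maturing neutrophils and of mature B cells were highest on B.D(Chr5) replicate 3, at 72164 and 2779. Those of mature T cells were highest on C57B/L6 replicate 2, at 1296. The part of these measures in the shared order, or in the low values on B.D(Chr5) replicate 3, was not tested.

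The partners and relatives of the factors were compared in the same way. Of 17 partners and cofactors, all 17 were tested and 0 passed limma, against 0.158% of all 10739 tested genes. At that share, 0 calls in a list of this size say little about its genes. The 17 had 9 positive and 8 negative log2 changes and a median of 0.025. The smallest p-values were those of Ep300, a histone acetyltransferase gene, at 1792 ± 245 in B.D(Chr5) and 1523 ± 158 in C57B/L6 (SD, n = 3 each), and of Cbfa2t3, the corepressor ETO2, at 1498 ± 167 and 1304 ± 136 (SD, n = 3 each), with log2 changes of 0.23 and 0.20. Ldb1, which holds the TAL1 complex together, had -0.068, and Cbfb, the partner of RUNX1, had 0.042. Ssbp2, Ssbp3 and Rcor1 were the 3 of the 17 that had B.D(Chr5) replicate 2 and C57B/L6 replicate 1 as their highest 2 arrays, a share near that of all tested genes.

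Of 14 relatives in the same gene families, 11 were tested (6 positive, 5 negative, median 0.0031). Of the 11, 0 passed limma, against 0.158% of all 10739 tested genes. Gata3, the GATA factor of T and innate lymphoid cells, read 210.0, 219 and 181 in B.D(Chr5) and 234, 308 and 468 in C57B/L6, without overlap, and had a log2 change of -0.64 (limma adjusted p = 0.905). It was the 1 of the 11 without overlap, against 9.94% of all tested genes. Of the 5 mature T cell markers, 4 were tested, 3 with negative and 1 with a positive log2 change (median -0.40), and Cd4 was at or below background. Their summed signal was 889, 610.5 and 745.5 in B.D(Chr5) and 844, 1296 and 1150 in C57B/L6, highest on C57B/L6 replicate 2, whereas Gata3 was highest on C57B/L6 replicate 3. Their part in the Gata3 value was not tested. Lmo1 had a log2 change of 0.58 (limma adjusted p = 1.00). Tal2 and Zfpm2 did not pass the filter, with signals of at most 37.3 and 58.0.

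Of 12 other stem and progenitor factors, 12 were tested (4 positive, 8 negative, median -0.12). Of the 12, 0 passed limma, against 0.158% of all 10739 tested genes. Meis1, a homeobox cofactor of stem cells, had 840.5, 892 and 749 in B.D(Chr5) and 946, 1117 and 1264 in C57B/L6. All B.D(Chr5) arrays lay below all C57B/L6 arrays, and the log2 change was -0.41 (limma adjusted p = 0.746). Meis1 was the 1 of the 12 without overlap, against 9.94% of all tested genes. Cebpa, a driver of the granulocyte and monocyte lineages, had 0.39 (limma adjusted p = 1.00), with its highest signals on B.D(Chr5) replicates 1 and 3. Myb, needed for progenitor growth, and Ikzf1, a lymphoid regulator, were the 2 of the 12 that had B.D(Chr5) replicate 2 and C57B/L6 replicate 1 as their highest 2 arrays. That share was near the 14.9% of all tested genes.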

How the data were processed

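RNA of lineage-depleted marrow was measured on 6 one-colour Affymetrix arrays, 3 per strain. The authors deposited 1 linear intensity per probe set and array, from MAS5 per the submitters' processing notes. Its version and settings were not given in the sources used here; 2% trimmed means were 500.0 on every array. Members and lists were chosen with earlier results of these data known.

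Of 45101 probe sets, 64 controls were left out; 34945 had 1 platform gene symbol, 932 several and 9160 none, and 34741 matched RefSeq by Entrez identifier. Those with several or none were not named. Signals became log2(signal + 16), so that changes of dim probe sets are understated. The upper 50% by mean, 22518 probe sets, were fitted with limma 3.58.1 under R 4.3.3 (lmFit, then eBayes using an intensity trend) on strain alone, two-sided, with Benjamini-Hochberg adjustment over all of them. The script was tested on simulated data. A gene stands for its brightest probe set, by mean over the 6 arrays. Text names all member probe sets, every called gene and the 2 genes of smallest p of each target, partner and relative list, Kit, and the 3 genes most correlated with Gata1 and Gata2; other names were chosen after seeing their values. The number of arrays limits precision. Alternatives were pseudocounts, filters, normalization, trend, the replicate block, averaging over probe sets, omitting _x_at probe sets, removing strain means, and leaving out each array.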

Additional observations from a re-analysis of the deposited data

How the results depend on the processing

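The count of member probe sets that passed limma was 0 under each of 14 alternatives, with at most 2 at an unadjusted p under 0.05. The direction of the 10 genes' changes was kept under pseudocounts of 1 and 64, both filters, quantile normalization, median centring, an untrended eBayes, the replicate block and the mean over probe sets, and only Nfe2 and Runx1 also kept it without each array. Leaving out 1 array gave log2 changes of -0.26 to 0.065 for Gata1, -0.20 to 0.0097 for Gata2, -0.20 to 0.049 for Klf1, -0.14 to 0.082 for Tal1, -0.12 to 0.0024 for Lmo2, -0.17 to 0.056 for Zfpm1, -0.072 to 0.20 for Gfi1b and -0.082 to 0.0027 for Lyl1. Gata1 minus Gata2 ran from -0.14 to 0.14. The 41 calls among all tested probe sets became 67 after centring on the median, 25 without trend, 27 with the replicate block and 21 in the upper 25% of probe sets, where fewer were tested, and 21 to 73 without 1 array; 72.6% of calls were higher in B.D(Chr5) without B.D(Chr5) replicate 2, against 53.7% with all arrays. The cause was not tested otherwise. Same-numbered samples had deviations correlated at -0.11, -0.20 and 0.20, and differently numbered ones at -0.16 to 0.30. With 3 arrays per strain these values are tied to one another. They cannot decide whether the numbers pair the samples. List medians moved by less than the spread between arrays in all 207 recomputations, though those of the members ran from -0.12 to 0.026, of the erythroid genes from -0.18 to 0.059 and of the megakaryocyte genes from -0.25 to 0.029 without 1 array. The count of pairs passing stayed at 0 under 4 alternatives, and r of Klf1 and Lmo2 was 0.78 after quantile normalization.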
